A study of Mus musculus with 26 samples.

Results

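The cytosolic ribosomal protein genes encode the proteins of the ribosome outside mitochondria. They were taken from the deposited count table by symbol: names of the form Rpl or Rps followed by a number, with an optional a, x, l or y, together with Rplp0, Rplp1, Rplp2 and Rpsa. Of 83 such names among 55141 genes, 80 reached a mean of 10 counts over the 26 libraries and are described here, 48 of the large and 32 of the small subunit. The 3 names below the minimum were Rpl3l, Rpl39l and Rpl10l, paralogs known for expression in muscle or testis.

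The libraries came from polyadenylated RNA of mouse gastruloids, aggregates of embryonic stem cells that elongate and form trunk-like tissues, with altered HoxB clusters. All 8 lines carried HoxB Del/Del(i9-13), and Del stands for gastruloids with no further change. The Ins line added Ins(CBS5-10), and 3 lines had in addition Del(CBS5-10), Del(CBS7-10) or Del(CBS8-10) and are called InsDel5to10, InsDel7to10 and InsDel8to10. Lines with both Ins(CBS5-10) and Inv(CBS5-10) were present as clone 1 (InvClone1) and clone 2 (InvClone2), and InvDel7to10 carried Inv(CBS5-10) with Del(CBS7-10). Each of InvClone1 and InvClone2 is 1 clone, and the labels name no line without the HoxB deletion. Gastruloids aged 120 h after aggregation gave 3 libraries for Del and 3 for Ins, 4 for InvClone1 and 2 for each of InvClone2, InsDel5to10 and InsDel7to10. InsDel8to10 and InvDel7to10 had a single library at that age. At 144 h InvClone1 had 2 libraries, while Del, Ins, InsDel8to10 and InvDel7to10 had a single one. The ages of 96 h and 168 h were sampled once, in InvClone1. The labels further give a library name: ISML_first (4 libraries, Ins and Del at 120 h), ISML_second (10, at 120 h and 144 h), ISML_third (10, InvClone1, InvClone2, InsDel5to10 and InsDel7to10) and TruSeq_second (2, InvClone1 at 120 h). The labels do not say that replicates were separate cultures, so each p-value measures the spread between these libraries, which may be technical.

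A ribosome joins a small subunit, which reads the mRNA, to a large subunit, which forms the peptide bonds, and most of its proteins are present as 1 copy in each particle. The mRNAs of these proteins are among the most abundant in growing embryonic cells. Many of them begin with a cytosine followed by a run of pyrimidines, the 5′ terminal oligopyrimidine tract, through which their translation responds to nutrient signalling by the kinase mTOR. Loss of 1 copy of Rpl38 in the mouse is known to give a short kinked tail and altered vertebral identities through reduced translation of Hox mRNAs.

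The start-site sequences are shown because the tract is a feature of the family that played no role in choosing the genes. RefSeq start sites (GRCm38.p6) were found for 58 of the 80 genes, 69 sites in all. A cytosine at the start followed by C or T through base 5 was present at 14 of 69 sites (20.3%), against 2.51% of 32851 start sites of all genes in that table. Each window below holds 15 bases before the start and 15 from it, 5′ to 3′ on the strand of the gene, with the first 5 transcribed bases in capitals. The first 4 windows have the tract and were picked as genes described below. The other 3 do not have it at the annotated base.
Rps18 (chr17:33955651-33955680, minus strand): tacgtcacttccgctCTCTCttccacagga
Rpl28 (chr7:4792950-4792979, plus strand): ccgcctctcgtgtctCTCTTtccgtctccg
Rplp2 (chr7:141447636-141447665, plus strand): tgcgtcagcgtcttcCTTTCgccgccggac
Rps27 (chr3:90213634-90213663, minus strand): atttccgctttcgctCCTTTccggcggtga
Rpl39 (chrX:37085208-37085237, minus strand): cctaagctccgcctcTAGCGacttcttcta
Rpl13 (chr8:123102335-123102364, plus strand): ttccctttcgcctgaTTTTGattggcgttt
Rpl4 (chr9:64173372-64173401, plus strand): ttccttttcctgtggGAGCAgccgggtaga

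In the windows from 250 bases before to 50 bases after the start, searched on both strands, CCGGAAG was found at 36.2% of the 69 sites and at 8.86% of all sites. TCGCGA was found at 20.3% against 2.50%, and AAGATGGC, the core of the motif of the factor Yy1, at 10.1% against 2.75%. TATAAA was found at 10.1% against 13.6%. CCGGAAG ends with the letters AAG that begin AAGATGGC, so these can overlap, and a match is a description of letters and not a binding site.

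Total counts ran from 18746411 to 37716547 per library (median 22616412). Counts were scaled to the depth of each library with TMM factors and are given as CPM, and tests used edgeR's quasi-likelihood test with Benjamini-Hochberg adjustment over all genes tested, at an adjusted p of at most 0.05. A pair of libraries, both of InvClone1, stood apart from the rest. Replicate 1 at 120 h (ISML_third) held the lowest CPM of 31 of the 80 genes. Replicate 2 at 144 h (ISML_second) held the lowest CPM of 15 genes and the highest of another 15. Mitochondrially encoded genes took 0.0864% of the counts of that library, against 0.587% to 1.51% in the other 25 libraries. Some other libraries also held many extremes. The highest CPM was in InvClone2 replicate 1 at 120 h for 20 genes, in Del replicate 2 at 120 h for 19 and in InvClone1 at 96 h for 14. The pair was set apart after these values were seen.

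Together the 80 genes took 3.77% to 6.36% of all counts in a library, with a median of 5.29%. The lowest share was in InvClone1 at 168 h and the highest in replicate 2 of Del at 120 h. At 120 h the share was 5.81% ± 0.52 (SD, n = 3) in Del, 5.57% ± 0.47 (n = 3) in Ins and 5.08% ± 0.71 (n = 4) in InvClone1. The ranges of the 3 lines overlapped, and these means pool library names. In ISML_second the lines had 5.32%, 5.05% and 5.28%, in the same order. In ISML_first Del had 5.76% and 6.36%, and Ins 5.71% and 5.95%. InvClone1 had 5.29% and 5.70% in TruSeq_second, and 4.06% in the ISML_third library that stood apart. The 2 libraries of InvClone2 had 6.35% and 5.63%, those of InsDel5to10 5.13% and 5.59%, and those of InsDel7to10 6.11% and 4.94%. The single libraries of InsDel8to10 and InvDel7to10 at 120 h had 4.57% and 4.66%. In bulk RNA a lower share can come from fewer cells of a type or from less of these mRNAs per cell relative to others. These cannot be told apart here.

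**Figure D1:**
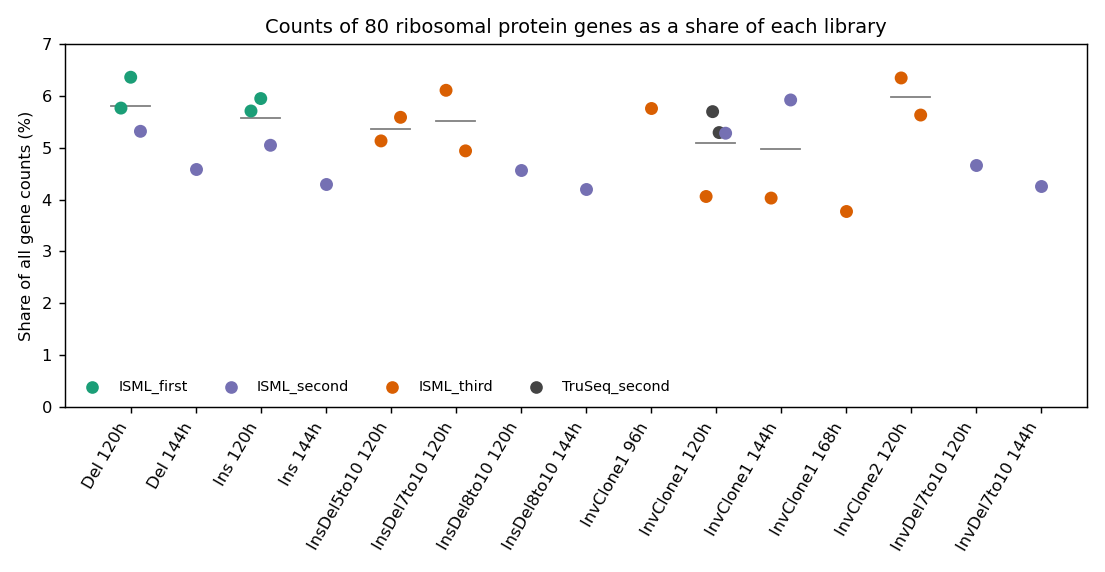
Share of all counts taken by the 80 ribosomal protein genes (y axis, percent), 1 point per library, by group of line and hours after aggregation (x axis) with the library name as colour. The shares run from 3.77% in InvClone1 at 168 h to 6.36% in Del at 120 h, and 9 of the 10 ISML_second libraries lie between 4.20% and 5.32%, the other being InvClone1 at 144 h with 5.92%.

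The 2 subunits kept nearly the same proportion in every library. The 32 small-subunit genes took between 44.0% and 45.8% of the counts of the 80 genes, also in the libraries that stood apart. Annotated pseudogenes of these genes took 0.0401% to 0.0676% of all counts. How the counting treated reads that match a gene and its copy equally is not given. The share therefore does not show how many reads the copies could share.

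Between genes, levels were compared on the authors' FPKM values, which are per length. Rpl41, the smallest ribosomal protein, had the highest mean at 1375 ± 426 FPKM (SD, n = 26), followed by Rpl32 at 1212 ± 281, Rpl8 at 1038 ± 436 and Rps4x at 1035 ± 266, and the spreads of these 4 overlap. At the other end were 4 genes far below the rest. Rps4l, a copy of Rps4x, averaged 65.5 ± 29.6 FPKM and Rpl29 53.8 ± 36.6 FPKM. Rpl6l averaged 0.795 ± 0.251 FPKM and Rpl32l 0.344 ± 0.217 FPKM, copies whose reads the counting could split from Rpl6 and Rpl32. The other 78 genes each had a mean of at least 10 CPM. In CPM, which also grow with length, Rpl4 ranked first at 2249 ± 392 CPM, followed by Rpsa, the laminin receptor precursor, at 1803 ± 481, Rpl7 at 1499 ± 352 and Rps4x at 1469 ± 365.

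The stage comparison asks what changes between 120 h and 144 h in Del, Ins, InsDel8to10, InvDel7to10 and InvClone1, each with 1 ISML_second library at either time. Of the 80 genes 9 were lower at 144 h and 0 higher, beside 5.81% of 16043 genes lower and 9.33% higher (15.1% in either direction). The median log2 difference of the 80 genes was -0.13, against -0.01 for all genes tested. A negative value was found for 65 of the 80, while 48.9% of all genes had a positive one. The genes past the threshold included Rpl39, Rpl37, Rpl28, Rplp0 and Rpl10 of the large subunit and Rps18, Rps7 and Rps23 of the small subunit. The falls of the 9 genes were small, from 0.22 to 0.33 on the log2 scale.

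Rpl39, a short protein at the exit tunnel of the large subunit, had 160, 156, 132, 137 and 152 CPM at 120 h in Del, Ins, InsDel8to10, InvDel7to10 and InvClone1. At 144 h the same lines had 131, 118, 116, 113 and 99.5 CPM. Every 144 h value lay below every 120 h value, and the fall was 0.33 ± 0.07 (SE) on the log2 scale (edgeR adjusted p = 0.0147). Rps18, a protein of the small-subunit head, had 803, 734, 660, 654 and 764 CPM at 120 h in the same order. At 144 h it had 648, 591, 567, 582 and 579 CPM, again without overlap. Its fall was 0.26 ± 0.06 (edgeR adjusted p = 0.0215). Rplp0, the base of the stalk that recruits elongation factors, had 1155, 1114, 1036, 990 and 1136 CPM at 120 h. At 144 h it had 929, 832, 830, 859 and 1026 CPM, where the InvClone1 value lay above the lowest of the 120 h values. Its fall was 0.26 ± 0.07 (edgeR adjusted p = 0.0318).

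Further falls past the threshold were 0.30 (Rpl37), 0.26 (Rpl28), 0.24 (Rps7), 0.24 (Rpl10) and 0.22 (Rps23) on the log2 scale. The values of Rpl37, Rpl28, Rps7, Rpl10 and Rps23 did not overlap between the times. Among all 80 genes, called or not, 12 had no overlap in the lower direction, beside 8.81% of all genes tested. In the higher direction it was 0 of the 80, beside 8.52%.

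The count of 9 depended on InvClone1. In the other 4 lines together 72 of the 80 genes were lower at 144 h and 0 higher, beside 14.9% of 15832 genes lower and 16.3% higher (31.2% in either direction), and their median log2 difference was -0.19. Leaving out Del, Ins or InvDel7to10 left 0 genes past the threshold, and leaving out InsDel8to10 left 1. The share of all genes past it in those fits is not given here. In the fit without InvClone1, Rps4x had a log2 difference of -0.29 ± 0.03 (SE), Rps20 of -0.28 ± 0.03 and Rps6, the substrate of S6 kinase, of -0.26 ± 0.03. The mean of Rps4x was 974 ± 54.6 CPM at 144 h and 1202 ± 67.1 CPM at 120 h (SD over 4 lines), without overlap. The 8 genes outside the threshold there included Rplp1 (-0.01), Rpl41 (-0.01), Rps27l (-0.09) and Rpl32l (0.11).

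Line by line, 79 of the 80 genes were lower at 144 h in Del, 80 in Ins, 76 in InsDel8to10 and 77 in InvDel7to10, and 32 in InvClone1. Of the other genes 50.3%, 60.1%, 54.6%, 50.9% and 55.7% were lower in these lines, in the same order. The share of counts fell by 0.735 percentage points in Del, by 0.737 in Ins, by 0.366 in InsDel8to10 and by 0.399 in InvDel7to10, and was 0.641 points higher at 144 h in InvClone1. In the lines other than InvClone1, 75 genes were lower in all 4, and 46 of the 80 were lower in all 4 and higher in InvClone1. The share of other genes with these patterns is not given here. The 144 h library of InvClone1 is the one with few mitochondrially encoded counts, and the part of that in the difference was not tested. It did not shift the 80 genes together: Rpl19 was higher there by 1.54 on the log2 scale and Rps24 by 1.24, while Rpl29 fell by 1.53 and Rps13 by 1.17. In the ISML_third library of InvClone1 at 144 h the share was 4.03%, beside 5.92% in the ISML_second library.

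**Figure D2:**
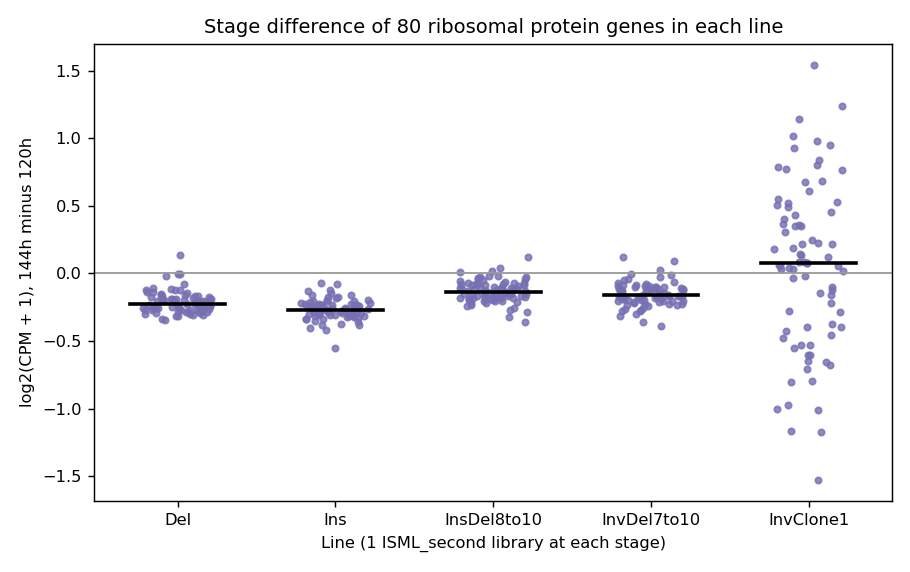
Difference in log2(CPM + 1) between 144 h and 120 h (y axis) for each of the 80 genes (points), by line (x axis), with the median as a black bar. In Del, Ins, InsDel8to10 and InvDel7to10 the points lie close together with medians from -0.27 to -0.13, while in InvClone1 they spread from -1.53 to 1.54.

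Tissue markers moved at the same time. All 6 neuron markers and all 6 neural tube markers were higher at 144 h, with median log2 differences of 2.73 and 1.93. All 6 presomitic mesoderm markers were lower, with a median of -2.79, and so were 5 of 6 tailbud markers, with a median of -1.44. The summed level of the neuron markers was 12.5 to 17.3 CPM in the 5 libraries at 120 h and 68.4 to 150 CPM in those at 144 h. The 14 mitochondrially encoded genes tested had a median of -0.95, with 3 lower, and -0.46 without InvClone1. The part of these in the ribosomal protein result was not tested.

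The other genes of protein synthesis gave a range of values for the same stages, where 5.81% of all genes tested were lower and 9.33% higher. Of 20 translation factors 2 were lower, Tpt1 (-0.41 ± 0.08) and Pabpc1 (-0.31 ± 0.07), and 0 higher, with a median log2 difference of -0.10. Of 24 genes of ribosome assembly in the nucleolus 1 was lower, Polr1b of RNA polymerase I (-0.27 ± 0.06), with a median of -0.04. Of 9 host genes of small nucleolar RNAs 3 were lower, Snhg1 (-0.47 ± 0.11), Gas5 (-0.35 ± 0.07) and Snhg5 (-0.32 ± 0.09), with a median of -0.32. Of 78 mitochondrial ribosomal protein genes 0 passed, with a median of 0.00. Without InvClone1, 11 translation factors, 19 assembly genes, 4 host genes and 3 mitochondrial ribosomal protein genes were lower. Of these 4 lists 1 mitochondrial ribosomal protein gene was higher. In that fit 14.9% of all genes were lower and 16.3% higher. Among 10 regulators of translation and growth Eif4ebp1, an mTOR-controlled repressor of cap-dependent translation, was lower (-0.72 ± 0.08), as was Myc (-0.63 ± 0.10), while Mycl was higher (1.07 ± 0.07).

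Some proteins of the cytosolic ribosome carry other names. Rack1, a scaffold on the small subunit, was lower at 144 h (log2 difference -0.27 ± 0.06, edgeR adjusted p = 0.0240), and the other 6 were not past the threshold. Among these, Rps3a1 had -0.10 and Fau, which is made as a fusion to a ubiquitin-like protein, 0.02.

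The genotype comparisons at 120 h ask whether adding the CBS5-10 segment (Ins against Del) or altering it (the other comparisons) changed expression. In none of the 5 did a ribosomal protein gene pass the threshold. In Ins against Del 0 of 80 passed, beside 0.00563% of 17769 genes. An unadjusted p under 0.05 was found for 0 of the 80, against 1.06% of all genes. The median log2 difference was -0.07, and 78 of the 80 values were negative, while 50.3% of all genes had a positive value. The 80 values come from the same libraries, so their signs are not independent. Rps6 had 660, 662 and 448 CPM in the 3 libraries of Ins and 662, 761 and 488 CPM in those of Del, and the lowest in each line was the ISML_second library. In InvClone1 against Ins 0 of 80 passed, beside 0.0169% of genes, and 0 had an unadjusted p under 0.05, against 0.951% of all genes. Only replicate 4 of InvClone1 at 120 h shares a library name with an Ins library (ISML_second). The other InvClone1 libraries are tied to Ins by the library-name terms, which rest in part on the libraries that stood apart. The result is thus not a plain comparison of 4 with 3 libraries. The median was 0.03 with the library name in the fit and -0.20 without it. Without InvClone1 replicate 4, 5 of the 80 passed, beside 1.71% of all genes in that fit. That fit ties InvClone1 to Ins only through the 144 h ISML_second library that stood apart.

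In InsDel5to10 against InvClone2 0 of 80 passed, beside 0.152% of genes. An unadjusted p under 0.05 was found for 9 of the 80 (11.2%), against 6.53% of all genes. The median log2 difference was -0.12. The furthest were Rpl36 at -1.78 ± 0.79 (SE), Rplp1 at -1.34 ± 0.49 and Rps4l at -1.29 ± 0.46 (edgeR adjusted p = 0.762 for each). Rplp1, a stalk protein, had 257 and 333 CPM in InsDel5to10 and 628 and 865 CPM in InvClone2. With the 4 libraries fitted alone and the replicate number as a block, 11 genes were lower, beside 6.25% of genes called in either direction in that fit.

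In InsDel7to10 against InvClone2 0 of 80 passed, beside 0.141% of genes, and 2 (2.5%) had an unadjusted p under 0.05, against 8.93% of all genes. In InsDel7to10 against InsDel5to10 0 of 80 passed, beside 0.253% of genes, and 4 (5%) had an unadjusted p under 0.05, against 10.7% of all genes. The 2 libraries of InsDel7to10 lay far apart, with Rpl36 at 557 and 45.3 CPM, Rplp1 at 941 and 218 CPM and Rps4l at 105 and 29.1 CPM. Without replicate 1 of InsDel7to10, 11 of the 80 were lower than in InvClone2, beside 1.66% of all genes called in either direction in that fit. Without replicate 2, 3 were higher than in InvClone2, beside 0.871%, and 11 higher than in InsDel5to10, beside 5.28%. DESeq2 called 0 of the 80 genes in all 5 comparisons.

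The library names were compared in the same fit. ISML_second and ISML_first were compared over Ins and Del at 120 h, with 1 and 2 libraries of each line. The median of the 80 values was -0.32, and 74 were negative, while 53.6% of all genes had a positive value. Of the 80 genes 4 were lower in ISML_second and 0 higher, beside 0.4% of 17769 genes lower and 2.30% called in either direction. The 4 were Rpl30 (-0.93 ± 0.13, edgeR adjusted p = 0.00160), Rps27a (-0.91 ± 0.20, edgeR adjusted p = 0.0317), Rpl31 (-0.62 ± 0.12, edgeR adjusted p = 0.0224) and Rpl39 (-0.53 ± 0.11, edgeR adjusted p = 0.0251). Rps27a, made as a fusion with ubiquitin, had 1036, 1139, 1046 and 1223 CPM in the 4 ISML_first libraries. The ISML_second libraries of the same lines at 120 h had 578 and 607 CPM, and those of InsDel8to10, InvDel7to10 and InvClone1 with that label had 511, 524 and 567 CPM. Leaving out either ISML_second library left 0 genes, and leaving out an ISML_first library left 1 or 2. The share of all genes called in those fits is not given here. Without the 2 libraries that stood apart, 14 genes were lower, beside 3.14% of all genes called in either direction.

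ISML_third and ISML_second can be compared within InvClone1 alone, with 1 library of each name at 120 h and 144 h, and both libraries that stood apart are among the 4. The comparison cannot be fitted without those 2, so their part in it and that of the library name cannot be told apart. Of the 80 genes 37 were lower and 8 higher in ISML_third, beside 36.3% of genes called in either direction, 20.7% lower and 15.7% higher. Rpl36 had the lowest value, 9.97 and 34.3 CPM in ISML_third at 120 h and 144 h against 501 and 1015 CPM in ISML_second (log2 difference -5.25 ± 0.92, edgeR adjusted p = 0.00181). Next were Rps4l (-3.20 ± 0.50), both stalk proteins Rplp2 (-3.12 ± 0.59) and Rplp1 (-2.68 ± 0.52), Rpl13 (-2.44 ± 0.44) and Rpl8 (-2.24 ± 0.31), a protein near the peptidyl transferase centre.

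The 8 genes that went the other way included Rps25 (0.86 ± 0.17), Rpl39 (0.86 ± 0.13), Rpl30 (0.79 ± 0.14), Rps27 (0.66 ± 0.14), Rpl31 (0.63 ± 0.14), Rpl23 (0.47 ± 0.15) and Rpl9 (0.41 ± 0.15). Rpl39, Rpl30 and Rpl31 were thus lower in ISML_second in both comparisons of library names, which share the ISML_second name but no library. Leaving out 1 of the 4 libraries at a time gave 32 to 45 genes, beside 15.8% to 29.8% of all genes.

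**Figure D3:**
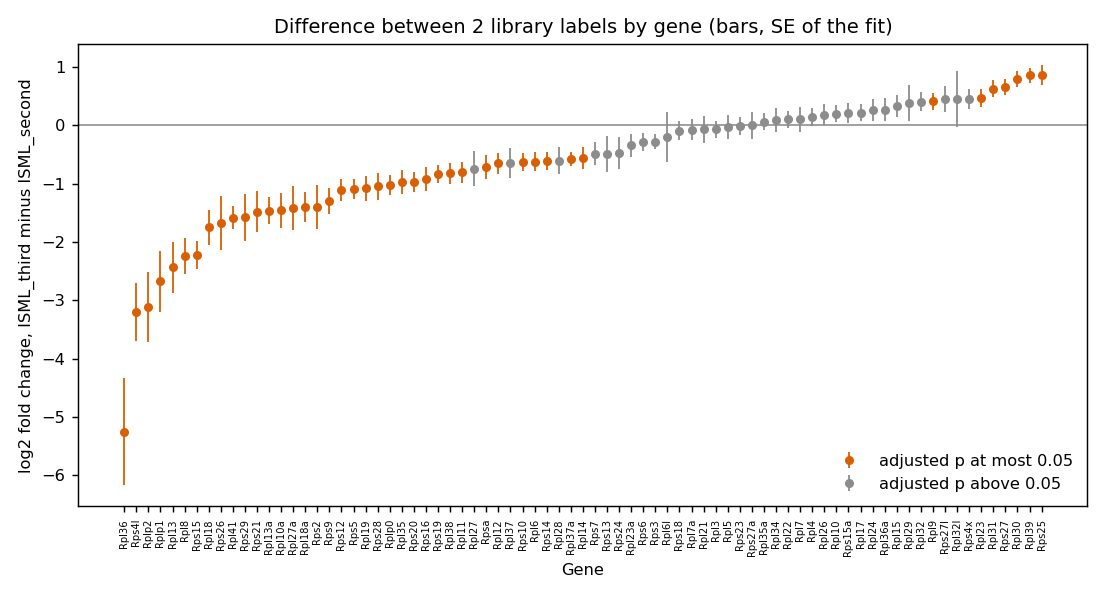
Log2 fold change of ISML_third against ISML_second within InvClone1 (y axis) for 77 of the 80 genes in order of size (x axis), with the standard error of the fit as bars. Orange genes passed an adjusted p of 0.05, and the values run from -5.25 for Rpl36 to 0.86 for Rps25.

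The TruSeq_second libraries, made with the TruSeq Stranded mRNA kit, were compared with the ISML_second library of InvClone1 at 120 h. In the fit this contrast also draws on the ISML_third library at 120 h and on InvClone1 at 144 h. Both libraries that stood apart are among these. A log2 difference can therefore depart from the CPM: Rps24 had means of 817 and 810 CPM in TruSeq_second and ISML_second but a value of -0.46. Of the 80 genes 0 passed, beside 0.405% of genes. An unadjusted p under 0.05 was found for 15 (18.8%), against 19.4% of all genes, and DESeq2 called 4 (3.97% of all genes). Rps28 was furthest, with 137 and 115 CPM in TruSeq_second and 309 CPM in ISML_second (-1.18 ± 0.25, edgeR adjusted p = 0.0616). Without that ISML_second library the contrast ran through the ISML_third libraries and 9 genes passed, beside 5.68% of all genes.

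To find the genes that do not move with the rest, each gene's log2(CPM + 1) was set against the median of the other 79 over the 26 libraries. Pearson's r is given as a description over libraries that share depth, line and library name. The median r was 0.70, and 15 of the 80 genes lay below 0.5. Among the genes closest to the rest were Rps6 (r = 0.94), Rpl6 (0.93) and Rpl23a (0.92). The lowest were Rpl6l (-0.19) and Rpl32l (-0.09), both near 1 CPM, then Rps2 (0.04), Rpl13 (0.09), Rpl27a (0.25), Rps4l (0.26), Rpl36 (0.27) and Rplp2 (0.33). Next to the limit were Rpl29 (0.49) below it and Rps21 (0.50) above, and both changed sides without the libraries that stood apart, to 0.87 and 0.40.

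Rps6 ran from 352 to 761 CPM and Rpl6 from 570 to 1112 CPM over all libraries. Rpl36 ran from 9.97 to 1015 CPM, with a standard deviation around the median of the other genes of 1.53 on the log2 scale, where the median gene had 0.26. Both ends of this range were the libraries that stood apart. Without them Rpl36 ran from 34.3 to 636 CPM with a standard deviation of 1.29, where the median gene had 0.18. In ISML_first it had a lowest, median and highest of 521, 536 and 636 CPM, in ISML_second of 368, 451 and 1015 CPM, and in ISML_third of 9.97, 80.2 and 557 CPM. The 2 TruSeq_second libraries both had 268 CPM.

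Rps2 and Rpl13 followed another order of the labels. Rps2, at the mRNA entry of the small subunit, had medians of 1253 CPM in ISML_first, 1889 in ISML_second, 916 in ISML_third and 1503 in TruSeq_second. Rpl13 had medians of 432, 676, 261 and 348 CPM in the same labels. Both medians were thus higher in ISML_second than in ISML_first, while most of the 80 genes were lower in ISML_second. Rpl27a, by contrast, had medians of 703, 451, 196 and 285 CPM, highest in ISML_first. These medians pool lines and ages that differ between the labels. In the fit, over Ins and Del at 120 h, Rps2 had a log2 difference of 0.72 ± 0.31 (SE) and Rpl13 of 0.81 ± 0.35. Neither passed the threshold (edgeR adjusted p = 0.227 and 0.242).

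Which genes stood off depended on the libraries. Within the 10 ISML_second libraries 20 genes had r below 0.5, and Rpl13 had r = 0.99. Within the 10 ISML_third libraries 3 had r below 0.5, and Rpl36 had 0.64 there. On log2(FPKM + 1) it was 5 genes. Without the 2 libraries that stood apart it was again 15, of which 12 were among the 15 over all libraries, and the median r was 0.85. In that set r was 0.06 for Rpl36, 0.06 for Rps4l, 0.18 for Rplp2, 0.18 for Rpl27a, -0.10 for Rps2 and -0.10 for Rpl13.

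**Figure D4:**
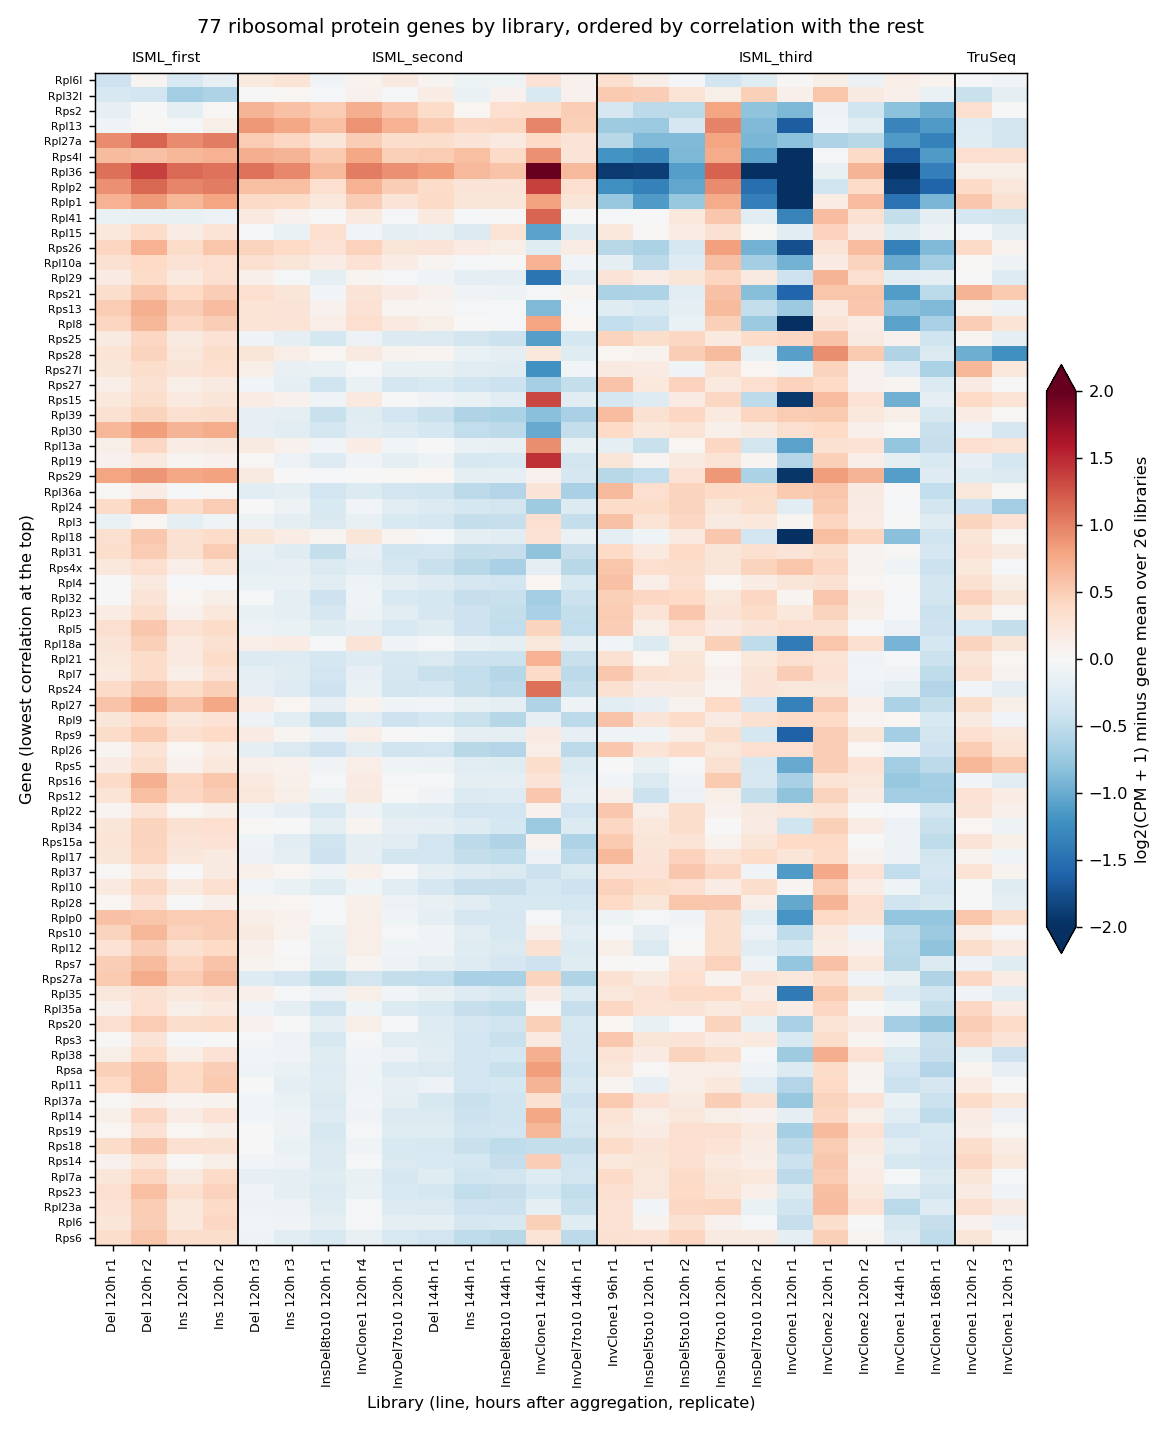
Log2(CPM + 1) of 77 of the 80 genes (rows) in each of the 26 libraries (columns), as the difference from the gene's mean over libraries (colour scale). Most rows change together, and a block that includes Rpl36, Rplp1, Rplp2, Rps4l and Rpl13 is low in most ISML_third libraries.

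Within ISML_third at 120 h the spread between 7 libraries of 4 lines was wide for a subset. Of the 78 genes with at least 10 CPM 10 differed by more than 5-fold between the lowest and the highest library, 12.8%, against 2.41% of 9229 other genes. They were Rpl36, Rps4l, Rplp1, Rplp2, Rps29, Rpl8, Rpl18, Rpl13, Rps26 and Rps15. Rpl36 had 65.8 and 114 CPM in InsDel5to10, 557 and 45.3 in InsDel7to10, 223 and 397 in InvClone2 and 9.97 in InvClone1. Rplp2 had 188 and 234 CPM, 930 and 168 CPM, 364 and 618 CPM and 97.6 CPM in the same libraries. Without the InvClone1 library, 2 of the 78 genes, Rpl36 and Rplp2, still spanned over 5-fold, against 1.02% of the others.

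Other genes spanned little in the same 7 libraries. The ratio of the highest to the lowest level corresponded to a log2 range of 0.29 for Rpl30, 0.30 for Rpl4, 0.32 for Rpl39 and 0.33 for Rpl31. Rpl4, at the exit tunnel, ran from 2271 to 2800 CPM. Of the 78 genes 0 spanned more than 5-fold in ISML_first, in ISML_second at either time or between the 2 TruSeq_second libraries, where 0.0433% to 0.325% of the other genes did.

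**Figure D5:**
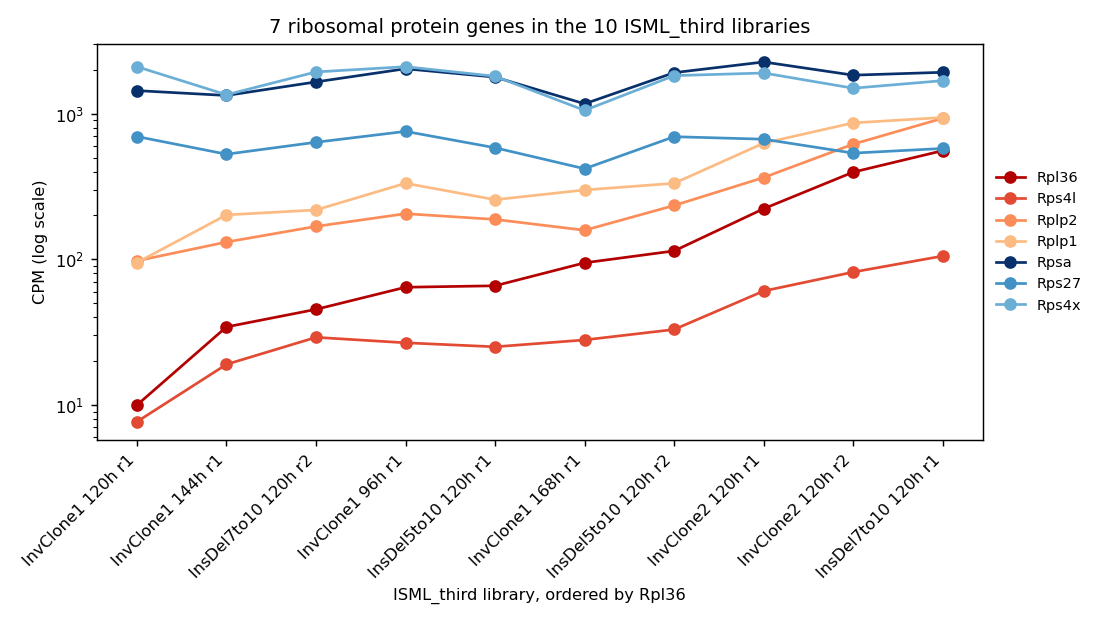
Level (y axis, CPM, log scale) of 7 genes in the 10 ISML_third libraries (x axis, line, hours after aggregation and replicate), ordered by Rpl36. Lines join the values of 1 gene. Rpl36 runs from 9.97 CPM in InvClone1 to 557 CPM in replicate 1 of InsDel7to10, and Rps4l and Rplp1 are also lowest and highest in these libraries, while Rps27 stays between 419 and 756 CPM.

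The members that followed Rpl36 most closely over the 26 libraries were Rps4l (r = 0.98), Rplp1 (0.98), Rplp2 (0.97) and Rpl8 (0.94). Without the 2 libraries that stood apart these were 0.98, 0.97, 0.97 and 0.91. Among 9009 other named genes of at least 10 CPM, the genes most like Rpl36 were Csnk1g2 (r = 0.99), Ndufs7, Znrd2, Adrm1, Sphk2, Aldh16a1, Nckap5l, Bag6, Trappc6a and Map2k2 (each 0.98). Csnk1g2, a casein kinase, had 42.0 CPM in InvClone1 replicate 1 at 120 h and 283 CPM in replicate 4. The genes most like the median of the 80 were Eef1g (r = 0.92), which joins the complex that recharges elongation factor 1, Polr1d (0.89), a subunit of RNA polymerases I and III, and Naca (0.88), which binds nascent chains at the ribosome. Next were Ascc1 (0.88), Eno1 (0.87), Phb (0.85), Ruvbl1 (0.84), Chchd1 (0.83), Eef1b2 (0.83) and Prmt7 (0.83). The median r of the 9009 genes to the median of the 80 was 0.08.

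The proteins of the ribosome under other names also lay on both sides between ISML_third and ISML_second. Fau was lower in ISML_third (-2.22 ± 0.37), while Rpl22l1 (0.68 ± 0.14) and Rpl7l1 (0.38 ± 0.12) were higher. Between ISML_second and ISML_first Rps3a1 was lower (-0.68 ± 0.14). Of the translation factors Eef2, the elongation factor that moves the ribosome along the mRNA, was lower in ISML_third (-1.30 ± 0.20) and Eif3e higher (0.99 ± 0.17), with 2 of 20 lower and 6 higher. Of 78 mitochondrial ribosomal protein genes 32 were lower and 8 higher. Among all genes tested in this comparison, 20.7% were lower and 15.7% higher.

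InvClone1 was followed from 96 h to 168 h in ISML_third with 1 library a stage, which allows no test. The share of counts was 5.76% at 96 h, 4.06% at 120 h, 4.03% at 144 h and 3.77% at 168 h. Against 96 h the median log2 difference of the 80 genes was -0.64 at 120 h, -0.57 at 144 h and -0.72 at 168 h, with 77, 80 and 75 genes lower. For all other genes the medians were -0.02, -0.02 and -0.01.

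The genes took different courses between those ends. Rps4x had 2102 CPM at 96 h, 2103 at 120 h, 1349 at 144 h and 1054 at 168 h. Rpl7 had 2130, 2054, 1387 and 1024 CPM, and Rpl4 had 3318, 2618, 2211 and 1718 CPM. These genes were lowest at 168 h. Rpl36 had 64.3, 9.97, 34.3 and 94.6 CPM and Rps15 had 605, 200, 392 and 666 CPM, lowest at 120 h and highest at 168 h. More than 2-fold below 96 h were 21 of the 80 genes at 120 h, in the library that stood apart, 0 at 144 h and 4 at 168 h, against 4.92%, 3.25% and 3.74% of other genes. The summed neuron markers in these 4 libraries were 32.7, 5.45, 27.1 and 406 CPM, and the presomitic mesoderm markers 1365, 214, 94.7 and 186 CPM.

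Rpl38, named here for its part in Hox translation, moved with the other genes (r = 0.86 over 26 libraries and 0.88 without the 2 that stood apart). Its level had a lowest, median and highest of 241, 259 and 294 CPM in ISML_first, 172, 199 and 366 CPM in ISML_second and 137, 260 and 369 CPM in ISML_third. The highest in ISML_second was InvClone1 at 144 h and the lowest in ISML_third InvClone1 at 120 h, the 2 libraries that stood apart.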

How the data were processed

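The submitters' processing notes name cutadapt 1.18, STAR 2.7.10a, Cufflinks 2.2.1 and the mouse build mm10. The deposited counts are whole reads per gene without normalization. The table's name points to HTSeq. Its version, strand setting and annotation were not given in the sources used here, so overlapping genes and near-identical copies such as Rps4l, Rpl6l, Rpl32l and Rps27l are uncertain. The authors also deposited FPKM values from Cufflinks, which are per length. In both tables together 8 columns matched no sample and were not used. Per the labels, 2 libraries of InvClone1 used the TruSeq Stranded mRNA kit and the others the ISML kit.

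The main test was the quasi-likelihood test of edgeR 4.0.16 (R 4.3.3), run robustly on TMM-scaled libraries after filterByExpr at 10 counts. P-values were adjusted by Benjamini-Hochberg and called at 0.05. Genotypes and library names came from 1 fit of 26 libraries with terms for group and library name (17769 genes, 8 residual degrees of freedom), and groups of 1 library took their spread from the replicated ones. The stage fit used the 10 ISML_second libraries with terms for line and stage (16043 genes, 4 residual degrees of freedom). All 80 genes passed both filters. Alternatives were no filter, a minimum count of 50, DESeq2 1.42.0, its size factors in edgeR, TMM factors without the 80 genes, the compared libraries alone, a replicate block, and each library or line left out. The fits were tested on simulated data with known changes. Members, lists and markers were chosen with earlier results of these data known.

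Named were, in each comparison, up to 6 genes each way past the threshold by size, the 8 with the lowest r and the 8 with the largest spread around the rest, the 4 with the highest r, and the 4 with the highest and the 4 with the lowest mean CPM. Paralogs, ribosomal proteins outside the rule and genes most like Rpl36 or the median were also named. Rpl38, Rpl19, Rps24, Rpl29, Rps13, Rps20, Rps15 and Rps28, the genes with the widest or narrowest ranges, and the remaining called genes given as values were named after their values were seen. A few genes that the rule names are not reported here and are left out of the plots that label genes. Same-numbered libraries of Ins and Del deviated together (correlations of 0.63, 0.41 and 0.77 over genes). The numbers of these 3 pairs also run with the library name.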

Additional observations from a re-analysis of the deposited data

Results flagged for a closer look

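Among the 5 ISML_second libraries at 144 h, the InvClone1 library lay far from the other 4 in 15 measures, by Dixon's test at the 95% level. The ribosomal protein genes took 5.92% of its counts, against 4.20% to 4.58%. It was highest for Rpl36 with 1015 CPM (368 to 439 in the others), Rplp2 with 1241, Rplp1 with 983, Rpl13 with 854, Rpl8 with 2192, Rpsa with 3132, Rpl7 with 1902 and Rpl4 with 2288 CPM. It was also highest for Rps6 with 631, Rpl6 with 1101 and Rps27a with 991 CPM. It was lowest for Rpl29 with 34.1 CPM (82.6 to 91.2 in the others), Rpl31 with 188 and Rps25 with 265 CPM.

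Of the 4 libraries of InvClone1 at 120 h, replicate 1 was far below the other 3 for Rplp1, with 94.9 CPM against 697 to 816, and for Rpl8, with 262 CPM against 1532 to 1787. In all, 84 groups of values were tested and 17 gave such a library. Chance gives about 1 in 20 groups for independent measures chosen beforehand. These measures are not independent because they come from the same libraries. Many of the genes were also named for their values in those libraries, so the count cannot be set against that rate.

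The share of counts was 0.641 percentage points higher at 144 h than at 120 h in InvClone1, and lower by 0.366 to 0.737 points in Del, Ins, InsDel8to10 and InvDel7to10. The lines moved in opposite directions with 1 library for each time, and the difference between them was not tested.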

How the results depend on the processing

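Over all alternatives, 93 counts and shares stayed within 1.5 times of the value reported, 15 counts rose, 10 fell and 2 other values moved. Of the named genes, 173 values kept their side of the threshold, 49 fell short of it and 0 changed direction. With no filter on low counts, 11 of the 80 genes passed in InsDel5to10 against InvClone2 (1.03% of all 37141 genes then tested), 3 in InsDel7to10 against InvClone2 (1.49%), 9 in InsDel7to10 against InsDel5to10 (2.58%), 42 in ISML_second against ISML_first (4.85%) and 13 in TruSeq_second against ISML_second (4.01%). With DESeq2, 14 passed in ISML_second against ISML_first (3.98% of all genes) and 4 in TruSeq_second against ISML_second (3.97%). Without the 2 InvClone1 libraries that stood apart, an alternative chosen after seeing the data, 14 passed in ISML_second against ISML_first (3.14% of all genes), and ISML_third against ISML_second could not be fitted. With the replicate number as a block, 11 passed in InsDel5to10 against InvClone2 (6.25% of all genes) and 0 in the other genotype comparisons where a block could be fitted. The stage fit with no replicate block, leaving the line out, gave 10. The numbers of InsDel7to10 correlated negatively with those of InvClone2 (-0.28) and InsDel5to10 (-0.18), and with them crossed, an alternative also chosen after seeing the data, 0 passed in either. Leaving out 1 line or library at a time gave 0 to 72 genes for the stage, 0 to 2 for ISML_second against ISML_first among the libraries it compares, 0 to 11 for InsDel7to10 against InvClone2 and against InsDel5to10, 0 to 5 for InvClone1 against Ins, 0 to 9 for TruSeq_second against ISML_second and 32 to 45 for ISML_third against ISML_second. Among these fits, no share of all genes is given here for those with 0 genes or for ISML_second against ISML_first. The median share was 11.6% of summed FPKM, and 5 genes had r below 0.5 on FPKM. The causes of these changes were not tested. With 4 or 8 residual degrees of freedom and 8 groups of 1 library, small differences could not be told from the spread between libraries.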
